A study of Mus musculus with 14 samples.

Results

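The genes described here are 9 genes by which Cajal-Retzius cells of the mouse cortex are recognised: Reln, Trp73, Lhx1, Lhx5, Ebf2, Ebf3, Calb2, Cacna2d2 and Ndnf. They were picked by symbol from 56941 gene IDs in the deposited tables, with earlier results of these data known. All 9 were detected in all 14 libraries and passed the filter on low counts in every fit. The 14 libraries are RNA-seq of embryonic mouse forebrain. In E12.5 telencephalon there were 3 dcKO and 3 ff libraries, and in E18.5 cerebral cortex 4 dcKO and 4 ff libraries (E12.5 and E18.5, days of gestation). The dcKO embryos had conditional alleles of Sbno1 and of Trp53 and carried Emx1-Cre, a driver named for a homeobox gene of dorsal telencephalic progenitors, so recombination is aimed at that lineage and not at every cell of the tissue. The ff groups are read here as carrying both floxed genes without the driver, since their labels give only these letters. No group had the driver alone or a deletion of only 1 gene, so the driver and the deletions cannot be told apart.

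Cajal-Retzius cells are among the first neurons of the cortex. They arise at its borders, in the cortical hem, the septum and the boundary with the subpallium, spread beneath the meninges and secrete the glycoprotein reelin. Reelin binds the receptors Vldlr and Lrp8 on migrating neurons and acts through the adaptor Dab1 to order the cortical layers. Most Cajal-Retzius cells of the mouse neocortex die after birth. Reln (ENSMUSG00000042453.15) encodes reelin itself. Trp73 (ENSMUSG00000029026.18) encodes p73, a relative of p53 that these cells need to survive. Lhx1 (ENSMUSG00000018698.16) and Lhx5 (ENSMUSG00000029595.10) encode LIM homeodomain transcription factors, and Ebf2 (ENSMUSG00000022053.14) and Ebf3 (ENSMUSG00000010476.15) encode transcription factors of the early B-cell factor family. Calb2 (ENSMUSG00000003657.10) encodes the calcium-binding protein calretinin, Cacna2d2 (ENSMUSG00000010066.16) an auxiliary subunit of voltage-gated calcium channels, and Ndnf (ENSMUSG00000049001.6) a secreted neuron-derived factor. None of the 9 is restricted to this cell type: Reln, Calb2 and Ndnf are also made by inhibitory interneurons, and Lhx1, Lhx5 and the Ebf genes by neurons of the diencephalon.

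Of the 9 genes, 5 had entries in the table of RefSeq promoters used here (GRCm38.p6): Reln, Trp73, Lhx1, Ebf3 and Cacna2d2. Trp73 had 2 entries in it, 42.7 kb apart on the minus strand of chromosome 4. The upstream promoter makes the transcript of full-length p73 and the internal promoter that of a shorter form without the transactivation domain, a form also made in mouse Cajal-Retzius cells. The deposited values are sums over both, so the forms could not be separated. The 250 bases before each start are shown for Trp73 and Reln because reelin and p73 define these cells. Capitals mark GC boxes (GGGCGG on either strand) and the p53 family decamer, which was searched on both strands.
Trp73, upstream promoter, chr4:154139876-154140125, minus strand: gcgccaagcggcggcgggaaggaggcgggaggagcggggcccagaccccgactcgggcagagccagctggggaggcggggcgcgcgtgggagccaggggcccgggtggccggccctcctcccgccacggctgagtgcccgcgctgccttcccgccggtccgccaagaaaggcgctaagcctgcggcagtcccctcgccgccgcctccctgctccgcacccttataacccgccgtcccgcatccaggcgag
Trp73, internal promoter, chr4:154097174-154097423, minus strand: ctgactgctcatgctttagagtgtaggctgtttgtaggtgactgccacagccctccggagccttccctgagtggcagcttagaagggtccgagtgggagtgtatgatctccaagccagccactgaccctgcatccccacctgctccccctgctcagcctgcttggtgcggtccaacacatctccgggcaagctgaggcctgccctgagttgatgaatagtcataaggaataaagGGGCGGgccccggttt
Reln, chr5:22344706-22344955, minus strand: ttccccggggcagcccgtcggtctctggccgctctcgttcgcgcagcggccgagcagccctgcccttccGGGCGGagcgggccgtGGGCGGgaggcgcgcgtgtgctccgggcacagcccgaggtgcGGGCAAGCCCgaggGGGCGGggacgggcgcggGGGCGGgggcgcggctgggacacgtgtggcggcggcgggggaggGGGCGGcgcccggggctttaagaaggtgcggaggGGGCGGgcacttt
The Reln window held 6 GC boxes and 1 p53 family decamer, and its GC content was 80%. The internal Trp73 window held 1 GC box at a GC content of 58.4%, and the upstream window held 0 at 77.2%. Of all 32851 RefSeq promoter windows of this length, 32.7% held a GC box and 7.13% a p53 family decamer. The EBF palindrome, in 0.779% of all windows, and the LIM homeodomain core TAATTA, in 4.84%, were in 0 of the 6 windows of the 9 genes.

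Of the E12.5 libraries 5 had total expected counts of 42.04 to 67.4 M (M, 1000000 counts), and ff replicate 1 had 4.92 M. Of the E18.5 libraries 7 had 48.6 to 81.96 M, and dcKO replicate 1 had 5.98 M. By chromosome Y genes and Xist all dcKO libraries were male, while 1 of the 3 ff libraries was female at E12.5 and 2 of the 4 were at E18.5. Ttr, which the choroid plexus makes, read 1.82 TPM in replicate 3 of E18.5 dcKO, while the remaining 7 libraries of that stage had 1401 to 3203 TPM. The targeted genes were looked at first: whole-gene counts of Sbno1 were 65.2 to 76.5 CPM in dcKO and 95.3 to 113 CPM in ff at E12.5, and 66.6 to 74.6 CPM in dcKO and 73.01 to 76.5 CPM in ff at E18.5. Trp53 was at 103 to 107.5 CPM in dcKO and 104.5 to 135.5 CPM in ff at E12.5, and at 55.4 to 72.2 CPM in dcKO and 73.7 to 77.7 CPM in ff at E18.5. The edgeR adjusted p was 0.0505 for Sbno1 and 0.218 for Trp53 at E12.5, and 0.682 for Sbno1 and 0.0319 for Trp53 at E18.5. The labels do not give the deleted exons, so these counts cannot show the deletions, and dcKO means the libraries labelled so throughout. Emx1 itself was lower in dcKO at both stages (log2 fold changes -0.96 and -0.81, adjusted p = 0.00833 and 8.31e-06 in edgeR).

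Levels of the 9 genes were compared with each other on the deposited TPM, which are scaled by transcript length. Reln was the highest in all 4 groups. Its TPM averaged 42.5 ± 1.21 in dcKO and 44.0 ± 7.80 in ff at E12.5 (SD, n = 3 each), and 123 ± 16.3 in dcKO and 89.6 ± 10.2 in ff at E18.5 (SD, n = 4 each). At E12.5 Calb2 was next, at 36.0 ± 3.84 TPM in dcKO and 31.1 ± 0.961 TPM in ff, and its libraries lay below those of Reln in both groups. In dcKO it was followed by Ebf3, Cacna2d2, Lhx5 and Lhx1 at means of 26.9, 23.35, 21 and 18.6 TPM, where each neighbour overlapped the next. In ff it was followed by Cacna2d2, Ebf3, Lhx5 and Lhx1 at means of 21.7, 17.99, 16.3 and 15.5 TPM, again with each neighbour overlapping the next. Trp73, Ebf2 and Ndnf were the lowest at E12.5, between 5.98 and 9.20 TPM in dcKO and between 7.59 and 9.06 TPM in ff, where Lhx1 and all 3 overlapped as neighbours.
At E18.5 the order was different. In dcKO Reln was followed by Cacna2d2 at 42.2 ± 3.61 TPM and then Calb2 at 31.9 ± 4.205 TPM, while in ff it was followed by Calb2 at 44.3 ± 8.66 TPM and then Cacna2d2 at 24.7 ± 1.40 TPM (SD, n = 4 each). The libraries of these neighbours did not overlap in either group. Trp73 and Ndnf followed, at 11.4 and 10.1 TPM in dcKO, where they overlapped, and at 7.885 and 12.97 TPM in ff, where they did not. The 4 transcription factor genes other than Trp73 were the lowest, at 1.51 to 5.84 TPM in dcKO and 1.14 to 3.15 TPM in ff.

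**Figure D1:**
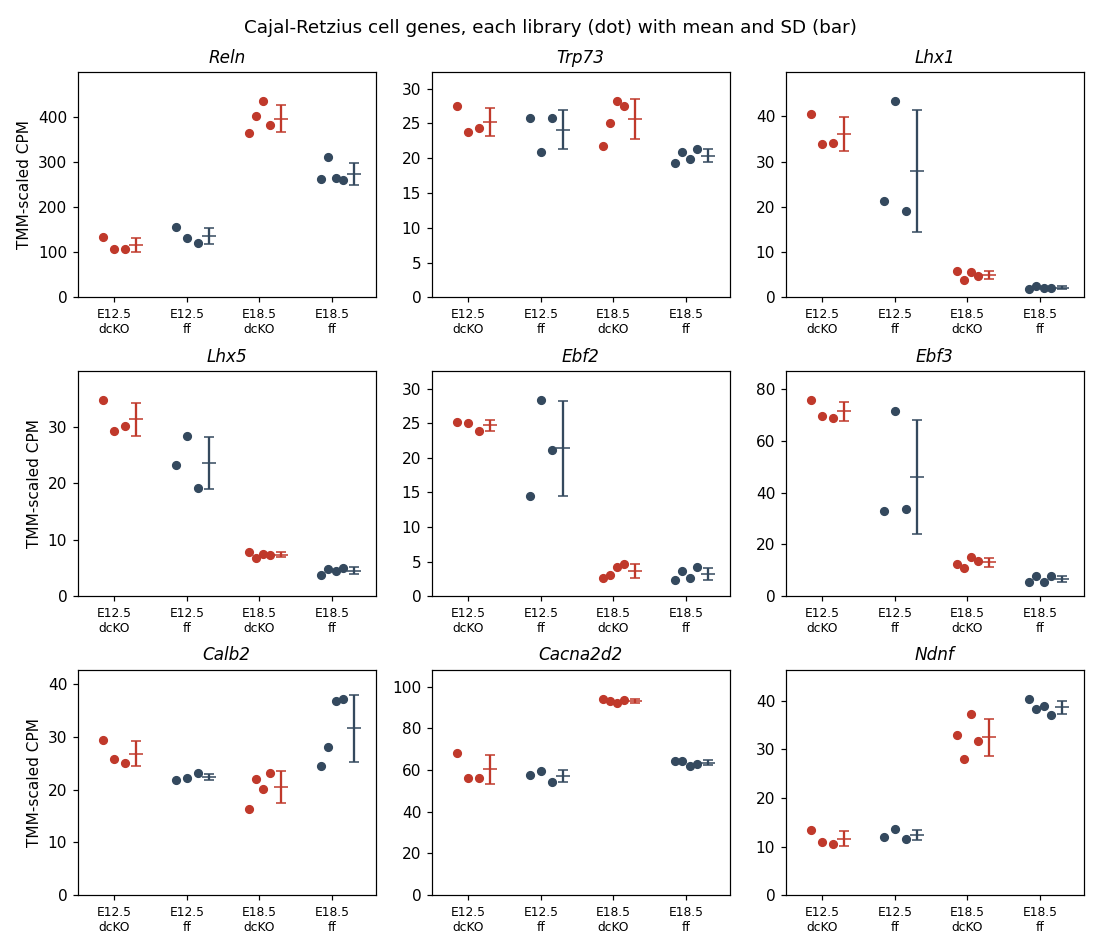
TMM-scaled CPM (counts per 1000000, y axis, linear from 0) of the 9 genes in each of the 14 libraries (dots), with the mean and SD of each group at its right. At E18.5 the 4 dcKO libraries lay above all 4 ff libraries for Reln, Trp73, Lhx1, Lhx5, Ebf3 and Cacna2d2, and below them for Calb2, and ff replicate 2 stood apart from the other 2 ff libraries at E12.5 for Lhx1 and Ebf3.

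In E18.5 cortex most of these genes were higher in dcKO than in ff. By edgeR's quasi-likelihood test, 6 of the 9 genes rose (Lhx1, Ebf3, Lhx5, Cacna2d2, Reln and Trp73), 1 fell (Calb2), and Ebf2 and Ndnf did not pass. In bulk tissue more cells of a type and more RNA per cell cannot be told apart. Over all 17974 genes tested, 32.2% passed, 15.6% higher and 16.6% lower. The median log2 fold change of the 9 genes was 0.58, and that of all genes tested was 0.03. Groups did not overlap for the same 7 genes, 6 above and 1 below ff, against 33.5% of all genes, 13% above and 20.5% below. After correcting for length and GC content of the transcripts, the calls over all genes split into 2297 higher and 4519 lower, against 2801 higher and 2978 lower without it, and of the 9 genes the same 6 rose while Calb2 and Ndnf fell.
Reln was at 365, 401, 434.5 and 383 CPM in dcKO, against 262, 311, 264 and 259 CPM in ff. Each dcKO library was above each ff library. The fold change was 1.49 (log2 fold change 0.58 ± 0.07 SE, edgeR adjusted p = 6.21e-05).
Trp73 was at 21.7, 25.1, 28.2 and 27.6 CPM in dcKO, against 19.3, 20.9, 19.9 and 21.4 CPM in ff. Replicate 1, the shallow library, was the lowest of dcKO and just above the highest ff library. The fold change was 1.31 (log2 fold change 0.39 ± 0.08 SE, edgeR adjusted p = 0.00206), the smallest of the 6 genes that rose.
The transcription factors Lhx1, Lhx5 and Ebf3 changed the most in relative terms, from low levels. Lhx1 was at 5.77, 3.84, 5.51 and 4.77 CPM in dcKO, against 1.79, 2.52, 2.17 and 2.03 CPM in ff (2.37-fold, log2 fold change 1.25 ± 0.17 SE, edgeR adjusted p = 0.000191). Ebf3 was at 12.3, 11.04, 15.3 and 13.5 CPM in dcKO, against 5.49, 7.65, 5.49 and 7.83 CPM in ff (2.03-fold, log2 fold change 1.02 ± 0.15 SE, edgeR adjusted p = 0.00027). Neither gene's groups overlapped.
Lhx5 was at 7.895, 6.84, 7.40 and 7.23 CPM in dcKO, against 3.66, 4.84, 4.49 and 5.02 CPM in ff (1.67-fold, log2 fold change 0.74 ± 0.13 SE, edgeR adjusted p = 0.000858). Ebf2, the close relative of Ebf3, was at 2.58, 3.04, 4.26 and 4.64 CPM in dcKO, against 2.32, 3.585, 2.64 and 4.23 CPM in ff. Its groups overlapped, and its log2 fold change of 0.26 (SE 0.22) did not pass (edgeR adjusted p = 0.389). Reads shared between these paralogs could be split in either direction by the authors' counting.

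Among the genes of calcium handling, Cacna2d2 had the lowest p and Calb2 went the other way. Cacna2d2 was at 94.1, 93.25, 92.02 and 93.8 CPM in dcKO, against 64.49, 64.5, 61.9 and 63 CPM in ff. The groups were far apart relative to their spread (SD 0.921 CPM in dcKO and 1.28 CPM in ff), and the fold change was 1.51 (log2 fold change 0.60 ± 0.04 SE, edgeR adjusted p = 2.81e-06). Calb2 was at 16.4, 22.1, 20.2 and 23.2 CPM in dcKO, against 24.6, 28.1, 36.8 and 37.2 CPM in ff. The highest dcKO library was just below the lowest ff library (0.676-fold, log2 fold change -0.56 ± 0.15 SE, edgeR adjusted p = 0.0164). With sex as a covariate its log2 fold change was -0.51 and it did not pass (edgeR adjusted p = 0.083).
Ndnf was at 32.9, 28.01, 37.35 and 31.7 CPM in dcKO, against 40.4, 38.3, 38.97 and 37.1 CPM in ff. dcKO replicate 3 overlapped the ff libraries, and the log2 fold change of -0.21 (SE 0.08) did not pass (edgeR adjusted p = 0.061). Without dcKO replicate 3 it was -0.29 (edgeR adjusted p = 0.0155) and without ff replicate 4 it was -0.25 (edgeR adjusted p = 0.048), while without dcKO replicate 2 it was -0.14 (edgeR adjusted p = 0.152). The authors' deposited table had adjusted p under the threshold for 8 of the 9 genes at E18.5, with Ndnf at 0.0326 and the exception being Ebf2 at 0.476.

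**Figure D2:**
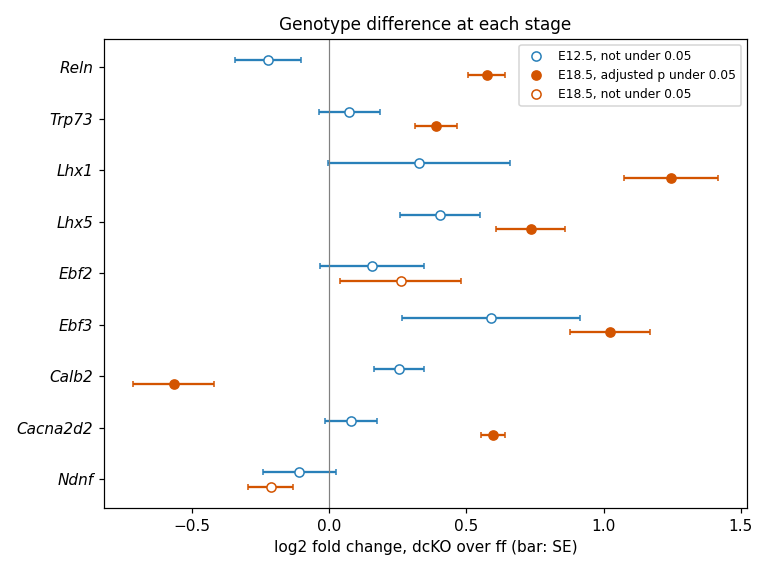
Log2 fold change of dcKO over ff (x axis) with its SE (bars) for each of the 9 genes at E12.5 and E18.5, filled where the adjusted p was under 0.05. At E18.5 Lhx1 (1.25) and Ebf3 (1.02) lay farthest to the right and Calb2 (-0.56) to the left, and no gene was filled at E12.5.

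Markers of other cell types were counted beside these genes at E18.5, where 15.6% of all genes tested rose and 16.6% fell. Of 20 interneuron markers 17 rose and 1 fell (Npy, a neuropeptide gene named after its value was seen, log2 fold change -0.33), with a list median of 0.78. Slc32a1, the vesicular transporter of GABA, had a log2 fold change of 0.89 (SE 0.05), and the GABA-synthesising enzyme Gad2 had one of 0.83 (SE 0.07). The summed TPM of the 20 markers was 1640 to 1790 in dcKO and 1118 to 1203 in ff, and each marker was detected in both groups. Of 15 diencephalon markers tested 6 rose and 0 fell (median 0.39), among them the homeobox gene Six3 (1.09, SE 0.10), the Wnt effector Tcf7l2 (0.75, SE 0.14) and the homeobox gene Nkx2-1 (0.78, SE 0.15), of which Six3 and Nkx2-1 are also expressed in the ventral telencephalon. Their summed TPM over all 17 markers was 64.1 to 93.9 in dcKO and 39.1 to 47.1 in ff. The highest sum was in dcKO replicate 1, the shallow library. That library was also the highest in Lhx1 and Lhx5, which had only 38 and 52 counts in it. Its sums were the highest for the 9 genes (251 TPM) and the interneuron markers (1790 TPM) as well, but not for the meningeal markers (815 TPM). Of 12 meningeal markers 3 rose and 0 fell (median 0.40), and their summed TPM was 786 to 1177 in dcKO and 534 to 919 in ff, with overlap. The named meningeal markers were Ogn, a matrix proteoglycan (0.59, SE 0.11), the retinoic acid enzyme Aldh1a2 (0.59, SE 0.19) and the transcription factor Foxc1 (0.41, SE 0.14). The last 2 passed only narrowly (adjusted p = 0.0465 and 0.0483 in edgeR), and not without dcKO replicate 4 or ff replicate 1, 2 or 3, among others. Of 10 choroid plexus markers 0 passed in edgeR, DESeq2 or limma-voom at E18.5, and 0 had an unadjusted p under 0.05 (median 0.05). Their summed TPM at E18.5 was 12.8 in dcKO replicate 3 and 2593 to 3366 in the other 3 dcKO libraries, against 1477 to 2579 in ff. In that replicate Reln, Trp73 and Ebf3 were at their highest. Without it their log2 fold changes were 0.53 for Reln, 0.35 for Trp73 and 0.94 for Ebf3, and all 3 passed. The part of the other cell types in the 9 genes' values was not tested.

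**Figure D3:**
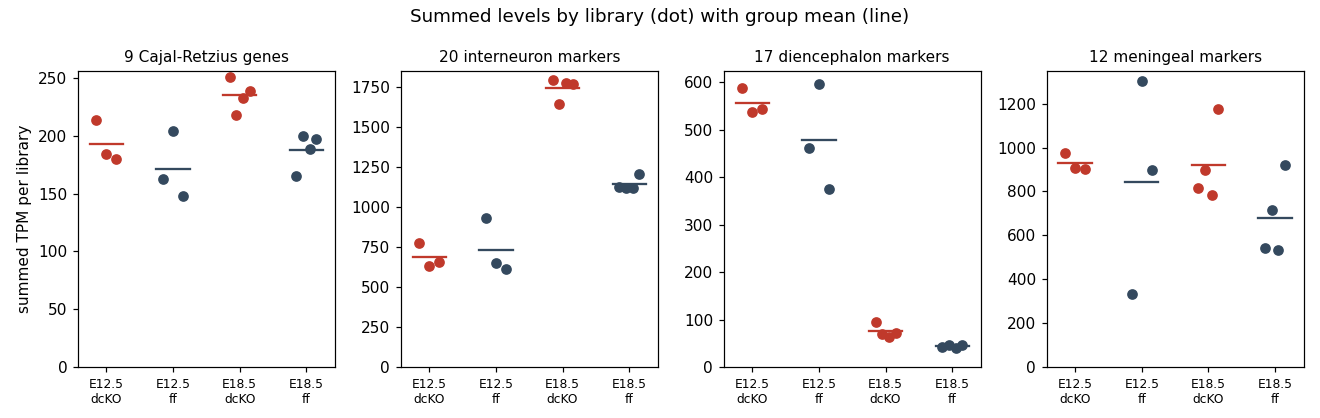
Summed TPM per library (dots) and group mean (lines) of the 9 genes, 20 interneuron markers, 17 diencephalon markers and 12 meningeal markers, each y axis linear from 0. At E18.5 the sums of the 9 genes were 218 to 251 TPM in dcKO and 165 to 199.5 TPM in ff, and the interneuron and diencephalon sums did not overlap between the groups either.

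Of 19 further genes expressed in or needed for Cajal-Retzius cells, 10 rose and 1 fell at E18.5 (median log2 fold change 0.32), where 15.6% of all genes tested rose and 16.6% fell. Nhlh1, a basic helix-loop-helix factor of young neurons, was at 8.91 CPM in dcKO and 4.56 CPM in ff (1.0, SE 0.12), the homeobox gene Emx2 at 25.85 CPM in dcKO and 19.6 CPM in ff (0.44, SE 0.07), and the zinc finger gene Zic5 at 21.35 CPM in dcKO and 11.6 CPM in ff (0.92, SE 0.15). Tbr1, a transcription factor of deep-layer neurons as well, was the gene that fell (-0.51, SE 0.10). At E12.5 DESeq2 called 6 of the 19 and limma-voom 2, and 7 had an unadjusted p under 0.05 in edgeR. Over all 17853 genes tested DESeq2 called 1203 and limma-voom 124, and 3433 had an unadjusted p under 0.05 in edgeR. By edgeR's adjusted p 0 rose and 2 fell, against 0.0392% higher and 0.151% lower over all genes tested. The 2 were Eomes (-0.74, SE 0.07) and Tbr1 (-0.79, SE 0.11), both of them also genes of intermediate progenitors and young projection neurons. Neither passed without dcKO replicate 2 or 3 (adjusted p up to 0.218 for Eomes and 0.364 for Tbr1 in edgeR), and Tbr1 also not without ff replicate 2 (0.06) or 3 (0.12).
Of 26 genes of reelin signalling, some of which act on or beside reelin, 2 rose, 9 fell and the rest did not pass at E18.5 (median -0.06), against 15.6% higher and 16.6% lower over all genes tested. Dab1, the adaptor that reelin receptors act through, was at 153 ± 15.01 CPM in dcKO and 247 ± 15.2 CPM in ff (SD, n = 4 each), a log2 fold change of -0.64 (± 0.06 SE, edgeR adjusted p = 1.76e-05). The receptor gene Lrp8 was at 231 ± 13.5 CPM in dcKO and 283 ± 17.9 CPM in ff (-0.25 ± 0.06 SE, edgeR adjusted p = 0.00629). The other receptor gene, Vldlr, was at 96.3 ± 7.01 CPM in dcKO and 102 ± 7.16 CPM in ff and did not pass (-0.03 ± 0.06 SE, edgeR adjusted p = 0.723). Nckap1, an actin regulator (-0.31, SE 0.06), and the ephrin Efnb3 (-0.23, SE 0.05) were the next by p. At E12.5 0 of the 26 passed in edgeR, 6 had an unadjusted p under 0.05, DESeq2 called 1 and limma-voom 0. Over all 17853 genes tested 3433 had an unadjusted p under 0.05 in edgeR, DESeq2 called 1203 and limma-voom 124. Lrp8 was at -0.38 (SE 0.10, edgeR adjusted p = 0.109), Dab1 at -0.13 (SE 0.09) and Vldlr at -0.08 (SE 0.14). Lrp8 passed at E12.5 without dcKO replicate 1 (-0.48, edgeR adjusted p = 0.035) and in 1 fit of all 14 libraries (-0.38, edgeR adjusted p = 0.028). It was also the gene called by DESeq2 (-0.38, adjusted p = 0.011). In the other 12 of 15 alternatives Lrp8 did not pass.
Of 18 genes that mark the sources of these cells, 16 were tested at E18.5, and 3 rose and 1 fell (median 0.25), against 15.6% higher and 16.6% lower over all genes tested. Rspo2, a secreted Wnt agonist, fell (-0.92, SE 0.09), while the signalling genes Bmp4 (0.49, SE 0.13) and Wnt5a (0.33, SE 0.10) rose. Bmp4 did not pass without dcKO replicate 4 (edgeR adjusted p = 0.054), nor Wnt5a without dcKO replicate 2 (0.051) or ff replicate 1 (0.078) or 3 (0.073). At E12.5 0 of the 18 passed in edgeR or limma-voom (median 0.36), while DESeq2 called 4 and 11 had an unadjusted p under 0.05 in edgeR. Over all 17853 genes tested DESeq2 called 1203, and 3433 had an unadjusted p under 0.05 in edgeR. The summed TPM of the 18 genes at E12.5 was 327 to 358 in dcKO and 243.5 to 294 in ff.

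In E12.5 telencephalon 0 of the 9 genes passed in edgeR. An unadjusted p under 0.05 was reached by 2 of the 9, Lhx5 and Calb2, and by 3433 of all 17853 genes tested. DESeq2 and limma-voom also called 0 of the 9, against 1203 and 124 of all genes tested. Over all 17853 genes tested 0.19% passed, 7 higher (0.0392%) and 27 lower (0.151%), or 12 higher and 137 lower after correcting for length and GC content. The median log2 fold change of the 9 genes was 0.16 and that of all genes was 0.01. Groups did not overlap for 2 of the 9, again Lhx5 and Calb2 and both above ff, against 26.5% of all genes, 13.5% above and 13% below.
Lhx5 was at 34.7, 29.2 and 30.0 CPM in dcKO, against 23.1, 28.4 and 19.2 CPM in ff (log2 fold change 0.40 ± 0.15 SE, edgeR adjusted p = 0.188). Calb2 was at 29.5, 25.8 and 25.1 CPM in dcKO, against 21.9, 22.2 and 23.1 CPM in ff (0.26 ± 0.09 SE, edgeR adjusted p = 0.18). For both the dcKO libraries lay above the ff libraries.
For Lhx1 and Ebf3 1 ff library was unlike the other 2. Lhx1 was at 40.5, 33.9 and 34.1 CPM in dcKO, against 21.3, 43.4 and 19.2 CPM in ff (0.33, SE 0.33). Ebf3 was at 75.7, 69.7 and 68.8 CPM in dcKO, against 32.9, 71.4 and 33.7 CPM in ff (0.59, SE 0.32). The high library in both was ff replicate 2. Without it Lhx1 had a log2 fold change of 0.85 (edgeR adjusted p = 0.0402) and Ebf3 of 1.10 (edgeR adjusted p = 0.00408). Without ff replicate 3 Lhx1 was at 0.08 (edgeR adjusted p = 0.92) and Ebf3 at 0.37 (edgeR adjusted p = 0.538). In Ebf2 the same library was the highest of all 6, with 25.2, 25.1 and 23.85 CPM in dcKO, against 14.5, 28.4 and 21.2 CPM in ff (0.16, SE 0.19).
The summed TPM of 17 diencephalon markers was 588, 536 and 543 in dcKO and 461, 596 and 376 in ff, so ff replicate 2 was the highest here as well. That of 12 meningeal markers was 976, 907 and 901 in dcKO and 331, 1301 and 898 in ff, highest in ff replicate 2 and lowest in ff replicate 1. Of the 17 diencephalon, 12 meningeal and 19 tested interneuron markers 0 passed at E12.5 in edgeR or limma-voom, with list medians of 0.35, 0.15 and -0.003. DESeq2 called 4 diencephalon, 0 meningeal and 1 interneuron marker, and 4, 1 and 3 had an unadjusted p under 0.05 in edgeR. Over all 17853 genes tested DESeq2 called 1203, and 3433 had an unadjusted p under 0.05 in edgeR. Of the 10 choroid plexus markers 0 passed in edgeR or limma-voom and 2 in DESeq2, 5 had an unadjusted p under 0.05, and the list median was 0.38. Their part in the values of Lhx1, Ebf2 and Ebf3 was not tested.
Reln was at 133, 108 and 107.5 CPM in dcKO, against 157, 131 and 121 CPM in ff, with overlap (-0.22 ± 0.12 SE, edgeR adjusted p = 0.361). Trp73 was at 27.5, 23.8 and 24.3 CPM in dcKO, against 25.8, 20.8 and 25.7 CPM in ff, with overlap (0.07, SE 0.11). Cacna2d2, at 56.02 to 68.4 CPM in dcKO and 54.04 to 59.6 CPM in ff, and Ndnf, at 10.45 to 13.3 CPM in dcKO and 11.6 to 13.6 CPM in ff, had log2 fold changes of 0.08 (SE 0.09) and -0.11 (SE 0.13).

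Whether the genotype difference itself changed between the stages was tested as an interaction in 1 fit of all 14 libraries. It passed for 3 of the 9 genes, 2 with a higher and 1 with a lower dcKO over ff ratio at E18.5, against 16.5% of 19327 genes tested, 7.12% higher and 9.41% lower. Reln had a difference of log2 fold changes of 0.75 (SE 0.14, edgeR adjusted p = 0.00302) and Cacna2d2 of 0.47 (SE 0.10, edgeR adjusted p = 0.00433). Calb2 had one of -0.86 (SE 0.20, edgeR adjusted p = 0.00891), being the only gene of the 3 whose dcKO libraries lay wholly above ff at E12.5 and wholly below at E18.5. All 3 passed with each of the 14 libraries left out in turn. Lhx1 (0.84 ± 0.35 SE, edgeR adjusted p = 0.118), Ebf3 (0.39, SE 0.36), Lhx5 (0.29, SE 0.19) and Trp73 (0.27, SE 0.14) did not pass, so a difference between the stages was not shown for them. Lhx1 passed without E12.5 ff replicate 3 (1.08, edgeR adjusted p = 0.0365) and in DESeq2 (0.88, adjusted p = 0.043). It did not pass in the other 20 of 22 alternatives. Without E12.5 ff replicate 2 the differences were 0.32 for Lhx1 (edgeR adjusted p = 0.333), -0.13 for Ebf3 (0.743) and 0.08 for Lhx5 (0.897), and over all libraries left out in turn their highest were 1.08 for Lhx1, 0.60 for Ebf3 and 0.42 for Lhx5, each without E12.5 ff replicate 3. Ndnf was at -0.14 (SE 0.15) and Ebf2 at 0.07 (SE 0.33). After the length and GC correction Ndnf passed (-0.38, edgeR adjusted p = 0.038), but not in the other 21 of 22 alternatives. Of the 26 reelin signalling genes 1 was higher and 3 lower, with Dab1 at -0.56 (SE 0.12, edgeR adjusted p = 0.00644), and of the 19 further Cajal-Retzius genes 5 were higher and 0 lower.

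E18.5 cortex and E12.5 telencephalon are different pieces of tissue, so stage and dissection cannot be told apart. These comparisons use the same libraries as those between the genotypes. In dcKO 3 of the 9 genes were higher at E18.5 and 5 lower, and in ff 3 were higher and 4 lower, by edgeR over 19327 genes, of which 62.2% passed in dcKO, 30.9% higher and 31.3% lower, and 61.4% in ff, 31.5% higher and 29.9% lower. The 4 LIM homeodomain and Ebf genes were lower at E18.5 in both genotypes. Lhx1 had log2 fold changes of -2.90 (SE 0.25) in dcKO and -3.74 (SE 0.26) in ff, and Lhx5 of -2.10 (SE 0.13) in dcKO and -2.39 (SE 0.13) in ff. Ebf2 had log2 fold changes of -2.71 (SE 0.24) in dcKO and -2.78 (SE 0.24) in ff, and Ebf3 of -2.44 (SE 0.25) in dcKO and -2.84 (SE 0.26) in ff. The stages did not overlap for these 4 genes in either genotype. Over all 9 genes they did not overlap for 8 in dcKO and 8 in ff, all but Trp73. Over all genes the stages did not overlap for 63.8% in dcKO, 30.8% higher and 33% lower at E18.5, and for 59.6% in ff, 31.7% higher and 27.8% lower. Of 17 diencephalon markers 15 were lower at E18.5 in dcKO and 17 in ff, with medians of -3.90 in dcKO and -4.42 in ff.
Reln and Ndnf were higher at E18.5. Reln had log2 fold changes of 1.77 (SE 0.11) in dcKO and 1.02 (SE 0.10) in ff, and Ndnf of 1.49 (SE 0.10) in dcKO and 1.63 (SE 0.11) in ff. Of 20 interneuron markers 14 were higher and 1 lower at E18.5 in dcKO, and 11 higher and 8 lower in ff, with medians of 1.305 in dcKO and 0.78 in ff. Reelin's partners were higher at E18.5 too, Vldlr by 1.31 on the log2 scale in both genotypes, Lrp8 by 0.84 in dcKO and 0.75 in ff, and Dab1 by 0.66 in dcKO and 1.22 in ff.
Trp73 did not pass between the stages in either genotype, with log2 fold changes of 0.04 (SE 0.10, edgeR adjusted p = 0.733) in dcKO and -0.23 (SE 0.10, edgeR adjusted p = 0.0523) in ff. The ff value of Trp73 lay close to the threshold. It passed without E12.5 ff replicate 2 (-0.32, edgeR adjusted p = 0.0182), after the length and GC correction (-0.40, edgeR adjusted p = 0.00582), in DESeq2 (adjusted p = 0.0412), with DESeq2 size factors in edgeR (0.039), with sex as a covariate (0.0368), with a mean of at least 1 CPM (0.0469) and with no filter (0.0492). It did not pass in the other 8 of 15 alternatives. Cacna2d2 was higher at E18.5 in dcKO (0.63, SE 0.07) and did not pass in ff (0.155 ± 0.07 SE, edgeR adjusted p = 0.0613). In ff it passed without E12.5 ff replicate 2 (0.21, edgeR adjusted p = 0.0384) and with a mean of at least 1 CPM (0.16, edgeR adjusted p = 0.049). Over the alternatives other than leaving each library out in turn, its ff value ranged from -0.01 to 0.16. Calb2 was lower at E18.5 in dcKO (-0.37 ± 0.14 SE, edgeR adjusted p = 0.0287) and higher in ff (0.49 ± 0.14 SE, edgeR adjusted p = 0.00619). The dcKO value did not pass without E12.5 dcKO replicate 1 (-0.30, edgeR adjusted p = 0.13), E18.5 dcKO replicate 1 (-0.30, adjusted p = 0.072) or E18.5 dcKO replicate 3 (-0.35, adjusted p = 0.064). Nor did it pass after the length and GC correction (-0.25, edgeR adjusted p = 0.098), in limma-voom (-0.33, adjusted p = 0.051) or without both shallow libraries (-0.30, edgeR adjusted p = 0.071).

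**Figure D4:**
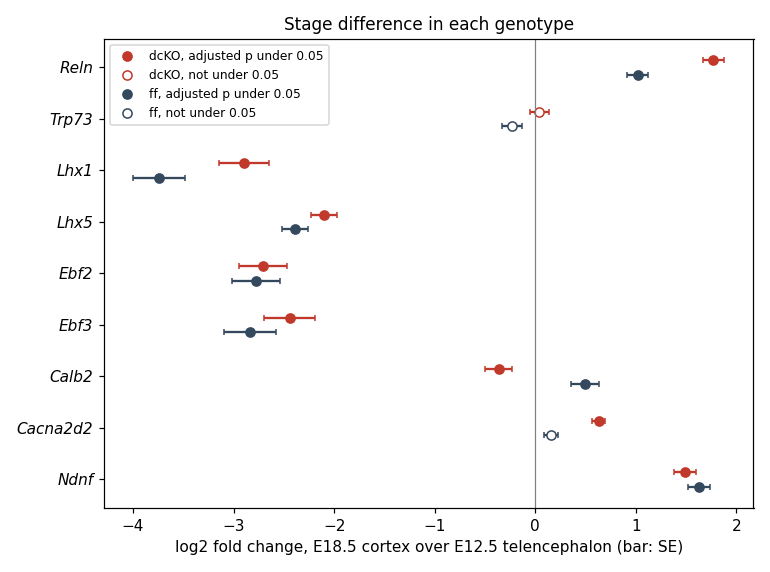
Log2 fold change of E18.5 cortex over E12.5 telencephalon (x axis) with its SE (bars) in dcKO and in ff, filled where the adjusted p was under 0.05. Lhx1, Lhx5, Ebf2 and Ebf3 lay below -2 in both genotypes, Reln and Ndnf above 1, and Calb2 on opposite sides of 0 at -0.37 in dcKO and 0.49 in ff.

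Exons of an annotated transcript on the opposite strand overlap exons of Reln, Trp73, Lhx5, Ebf2, Ebf3 and Cacna2d2 in GENCODE M21, and none overlap Lhx1, Calb2 or Ndnf. The strand setting of the counting is not given in the sources used here, so reads of those partners could be included in these 6 genes.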

How the data were processed

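Total RNA of whole tissue pieces was made into libraries with a stranded mRNA kit (TruSeq), per the labels' protocols. The submitters' processing notes name Trim Galore, STAR, RSEM and DESeq2; versions, genome build and the strand setting of the counting are not given in the sources used here. The authors deposited RSEM expected counts and TPM per gene for each library. The authors also deposited log2 fold changes, p-values and a mean signal (normalised count) from DESeq2, whose signs matched the counts for the 9 genes at both stages; that mean was not tested.

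Groups come from the genotype word of each table column (dfl taken as ff) and the stage of the table, because library names in the sample descriptions conflict with the titles. Replicate numbers follow column order. Rounded counts went into edgeR 4.0.16 under R 4.3.3 (filterByExpr, TMM, robust quasi-likelihood F tests). Each stage had a separate fit, and interaction and stage differences came from 1 fit of all 14 libraries. Benjamini-Hochberg adjustment covered all genes tested, with a threshold of 0.05. CPM were scaled by TMM over all 14 libraries, and SE are the absolute log2 fold change over the square root of F. Alternatives used limma 3.58.1 and DESeq2 1.42.0 as well. The 9 genes, the other lists and the tests were chosen with earlier results of these data known. Of the lists, the reelin receptors, Dab1 and up to 3 called genes with the lowest p per list and comparison are named, except 1 that is not reported here. Promoters are RefSeq's (GRCm38.p6). The labels do not say whether libraries of a group came from separate litters, so p-values measure the spread between these libraries. Replicates 2 and 3 of E12.5 dcKO were the most alike of all pairs within a group. A chi-square over its degrees of freedom was 3.82 for them and 15.46 to 38.71 for the other pairs. Whether they are independent was not tested. The tests count them as separate, so p-values that use E12.5 dcKO may be too small.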

Additional observations from a re-analysis of the deposited data

Results flagged for a closer look

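Among the 18 groups of 4 libraries looked at for the 9 genes at E18.5, 1 had a library far from the rest: Reln in ff replicate 2, at 311 CPM against 259 to 264 CPM in the other 3 ff libraries. Chance gives such a library in about 1 in 20 groups. It was the ff library nearest to dcKO, in which Reln was 365 to 434.5 CPM.

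The genotype difference was tested between the stages, and for 3 genes it differed. The E18.5 minus E12.5 difference of log2 fold changes was 0.75 for Reln, 0.47 for Cacna2d2 and -0.86 for Calb2.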

How the results depend on the processing

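Of 792 values of the 9 genes under an alternative, 762 stayed on their side of the threshold, 9 lost a call, 21 gained one and 0 called values changed sign. The 792 include the TPM values at E12.5, which could not gain a call. Within a stage the fit without the shallow library repeats the fit with that library left out, so those values were counted again. On TPM the threshold was on the unadjusted permutation p. The number of the 9 genes called moved by over 1.5 times only at E12.5, where it was 0 to 2 with 1 library left out. Over all genes the E12.5 count moved from 34 to 1079 in 1 fit of all 14 libraries, 1203 in DESeq2, 56 with DESeq2 size factors in edgeR, 149 after the length and GC correction, 124 in limma-voom, 9 with a mean of at least 1 CPM, 244 with no filter, 3 with sex as a covariate and 71 without the shallow library. With 1 library left out it was 0 to 571 (0 without dcKO replicate 2 or 3 in edgeR, with 1790 and 1723 genes at unadjusted p under 0.05), and the count for the interaction was 1690 to 3307. Calb2 at E18.5 was not called with sex as a covariate or on either TPM scale (exact permutation p = 0.0571, with 0.0286 the smallest possible). Ndnf at E18.5 was called by DESeq2 (adjusted p = 0.037), limma-voom (0.045), with no filter (0.04) and after the length and GC correction (0.012). That correction moved the median log2 fold change of all genes between the stages to -0.094 in dcKO and -0.112 in ff, against 0.012 and -0.002 without it. On TPM at E12.5 no gene could pass, as the smallest possible exact permutation p is 0.1. No paired analysis was possible because the labels give no replicate numbers shared between the genotypes. Eomes and Tbr1 at E12.5 were not called with sex as a covariate (adjusted p = 0.051 and 0.11), nor Bmp4 and Ogn at E18.5 in 1 fit of all 14 libraries (0.13 and 0.1). In the shallow libraries E12.5 ff replicate 1 and E18.5 dcKO replicate 1 low genes are less precise. The cause of these changes was not tested.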

Other observations

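The multiciliated cell genes, some of which p73 is known to regulate, were looked at beside Trp73. Of 12 genes tested at E18.5, 2 were higher and 0 lower in dcKO: Myb, a transcription factor (log2 fold change 0.41 ± 0.12 SE, edgeR adjusted p = 0.0221), and Rfx2, a factor of ciliated cells (0.45 ± 0.15 SE, edgeR adjusted p = 0.0334). The list median was 0.14, and 15.6% of all genes tested were higher and 16.6% lower. At E12.5 0 of the 12 passed in edgeR or limma-voom (median 0.15), DESeq2 called 1, and 2 had an unadjusted p under 0.05 in edgeR. Over all 17853 genes tested at E12.5 DESeq2 called 1203 and limma-voom 124, and 3433 had an unadjusted p under 0.05 in edgeR. Myb did not pass without E18.5 dcKO replicate 3 (adjusted p = 0.051 in edgeR) or ff replicate 1 (0.064) or 3 (0.078), nor Rfx2 without dcKO replicate 2 or 4 or ff replicate 1, 2 or 3 (highest adjusted p = 0.119 in edgeR). Projection neurons of the olfactory bulb also express Reln, Lhx1 and Lhx5. Of 6 tested markers of these neurons 1 rose and 3 fell at E18.5 (list median -0.49), where 15.6% of all genes rose and 16.6% fell. Eomes, named after its value was seen, rose (0.32, SE 0.07). Nrp1 (-0.72, SE 0.07), the glutamate transporter Slc17a7 (-0.48, SE 0.09) and Tbr1 fell. Cdhr1 (-0.76 ± 0.35 SE, edgeR adjusted p = 0.145) and Tbx21 (0.42 ± 0.47 SE, edgeR adjusted p = 0.52) did not pass, both named after their values were seen. A change in the number of these neurons was not tested. At E12.5 0 of the 7 rose and 2 fell in edgeR, again Eomes and Tbr1 (median -0.32), where 0.0392% of all genes tested rose and 0.151% fell. DESeq2 and limma-voom each called 3 of the 7, against 1203 and 124 of all 17853 genes tested. An unadjusted p under 0.05 in edgeR was reached by 4 of the 7 and by 3433 of all genes tested. The summed TPM of the 7 markers at E18.5 was 183 to 222 in dcKO and 227 to 286 in ff.

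The genes whose profile over the 14 libraries was most like that of Reln were Nrxn3, a synaptic adhesion gene, Bcl11b, a transcription factor of deep-layer and striatal neurons, Elapor1 and Akap5, a scaffold of protein kinase A. Their root mean square differences from Reln were 0.13 each on the log2 scale, after centring each gene. Bcl11b averaged 408 CPM in dcKO and 308 CPM in ff at E18.5, and 120 CPM in dcKO and 166 CPM in ff at E12.5. The genes most like Trp73 were Nhlrc3, Msantd7, Rrp12 and Ccdc137, at differences of 0.10 to 0.12. Nhlrc3 averaged 28.2 CPM in dcKO and 22.8 CPM in ff at E18.5, and 27.0 CPM in dcKO and 26.4 CPM in ff at E12.5. Likeness here is over all 4 groups, so the stage and genotype differences are part of it.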
